A study of Schizosaccharomyces pombe with 2 samples.

Results

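The wild-type array is 1 of the 2 arrays of a series on replication stress in the fission yeast Schizosaccharomyces pombe, and was chosen by its label alone. Its red channel (Cy5) held DNA immunoprecipitated with an antibody to BrdU, and its green channel (Cy3) held whole-cell extract DNA of cdc10-v50 cells, here called input. The strain, of background 972h, is wild-type for sap1 and carries cdc10-v50, an allele that the sap1-1 strain of the series carries too. Cdc10 is part of the transcription factor that drives G1/S genes, and cdc10-v50 cells stop before S phase when warmed. Both strains also hold the modules Pnmt1-TK, a thymidine kinase, and Padh1-hENT, a nucleoside transporter, since yeast cannot otherwise take up and phosphorylate thymidine analogues. Cultures were held at 35 °C for 4 h, then returned to 26 °C with 10 mM hydroxyurea and 200 µM BrdU, and stopped with 0.1% sodium azide, after a time not given in the sources used here. There was 1 array of 1 culture, so no value below has a replicate, no test was possible, and every SD or quartile covers the scatter of tiles or regions on this array only. Culture, immunoprecipitation, random-primed amplification and array cannot be told apart in any of these values.

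Hydroxyurea inhibits ribonucleotide reductase, the enzyme that makes deoxynucleotides, so that forks slow soon after they leave an origin. BrdU is built into DNA in place of thymidine, and under hydroxyurea the labelled DNA lies around the origins that fired. Fission yeast origins have no single consensus sequence. They lie mostly in AT-rich stretches between genes, where the Orc4 subunit of the origin recognition complex binds through AT-hooks. Which of them fire early differs by domain: pericentromeric heterochromatin and the mating-type region replicate early, and the regions near telomeres late in unperturbed cells.

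Usable tiles on the chromosomes numbered 41243, and neighbours typically began 300 bp apart (median). Each tile was taken as a stretch of 300 bp, and the length of the probes themselves was not used. From first to last tile the chromosomes spanned 12539 kb, untiled stretches included, here called the tiled length. Over non-control probes the median signal was 920.4 in Cy5 and 1059 in Cy3, no tile was saturated, and only 6 tiles in Cy5 and 1 in Cy3 were not well above background. The measure used throughout is the log2 ratio of Cy5 over Cy3, centred on the median of the array, so that 1 means 2-fold above the middle tile. It is relative, and 0 does not mean that no BrdU was present. Single tiles lay between -3.86 and 4.68. The middle of the tiles, by quartiles, lay between -0.83 and 0.98, and the outer 1% on either side lay below -2.44 and above 3.06. Neighbouring tiles differed with an SD of 0.60, which is small beside this range. Forward and reverse probes had the same level, with medians of -0.0025 and 0.0030.

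BrdU signal was collected in separate stretches along all 6 chromosome arms. A labelled region needed 3 or more tiles in a row whose smoothed ratio (mean of tiles within 0.5 kb) was 1 or more, with runs under 1 kb apart joined. There were 472 such regions over 3057 kb. They held 9811 of 41243 tiles, which is 23.8% of tiles. Labelled tiles had a median Cy5 signal of 2695, against 697.4 in the other tiles. Their median Cy3 signal was 967.4, against 1081 in the other tiles. The difference in ratio therefore lay mostly in the immunoprecipitated channel and to a small extent in the input.

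**Figure D1:**
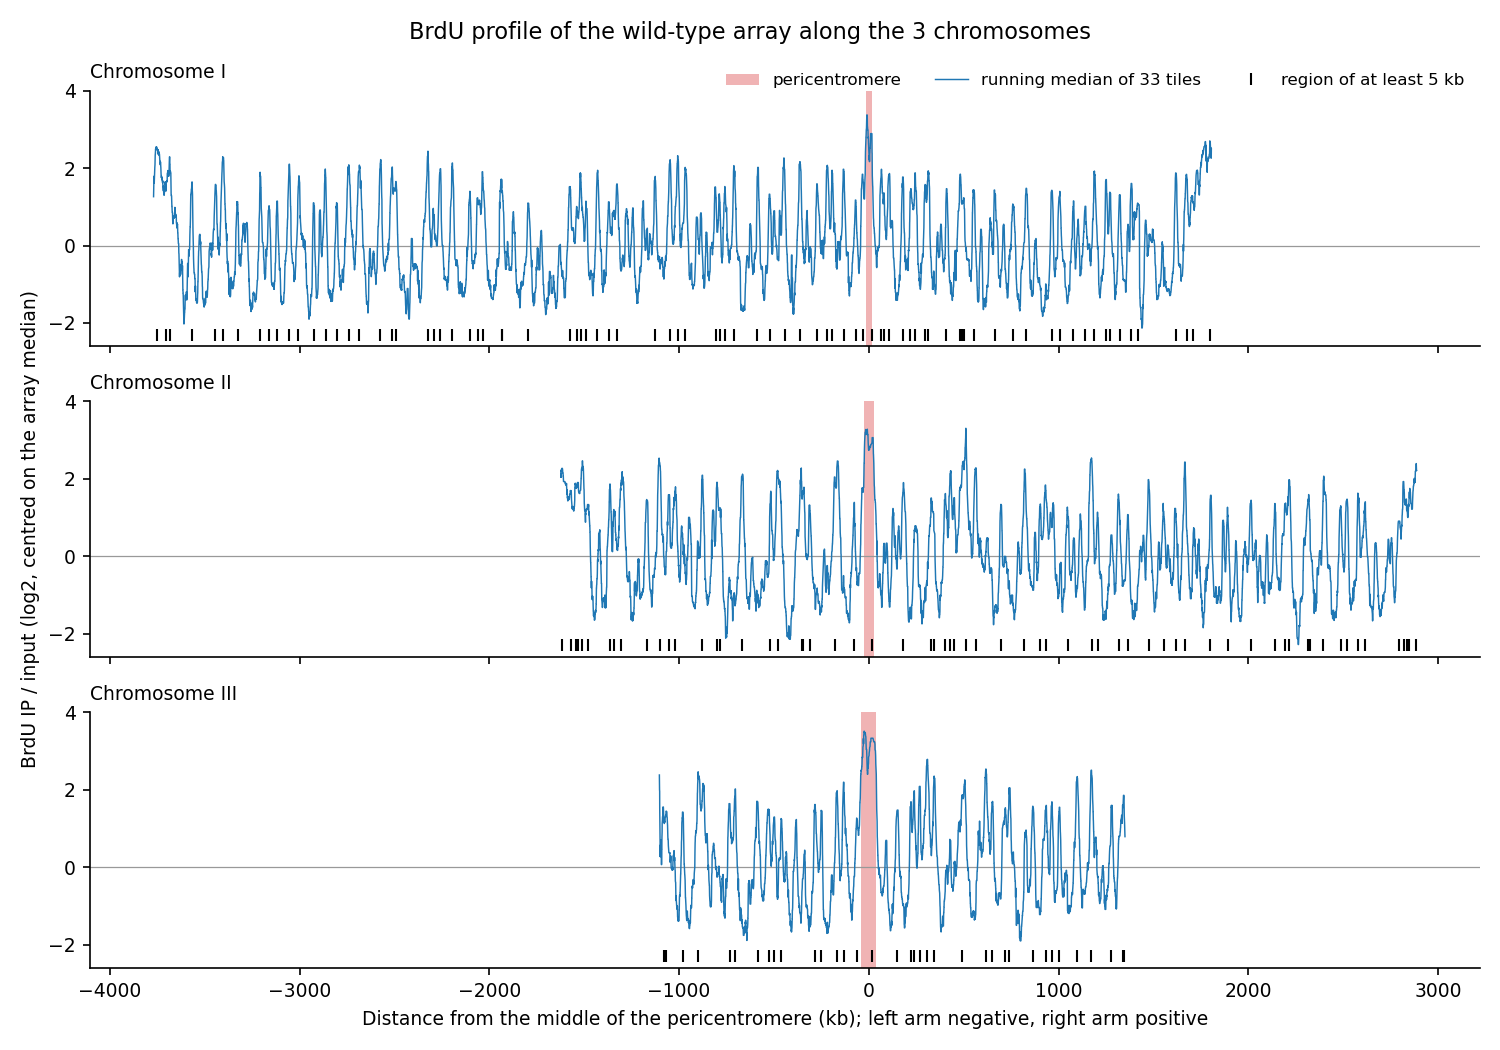
Running median over 33 tiles of the centred log2 ratio of BrdU immunoprecipitate over input (vertical axis) against distance from the middle of each pericentromere in kb (horizontal axis), for the 3 chromosomes of the wild-type array. Shaded bars are pericentromeres and ticks are summits of regions of at least 5 kb; narrow peaks recur along every arm, the pericentromeres stand at medians of 2.92 to 2.98, and the outer parts of chromosomes I and II form broad blocks.

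Most of the labelled length lay in a minority of long regions. The median region was 2.7 kb long, with quartiles of 1.2 and 8.7 kb. The longest, at the pericentromere of chromosome III, spanned 93.9 kb with 196 tiles, untiled stretches included. Regions of at least 5 kb numbered 186 and held 84.0% of the labelled length (2569 kb). The 5 kb limit was chosen with earlier results of these data known. Length and height went together: across the 472 regions, the summit correlated with log2 length at Pearson r = 0.88 and Spearman rho = 0.86. This is a description across regions, since both numbers come from the same profile and the same threshold, and a higher peak is wider at a fixed height. In the arm interiors, outside the outer 100 kb, the 50 kb beside each pericentromere and the mating-type region, the median summit was 1.40 in 149 regions under 1.5 kb. It was 1.78 in 115 regions of 1.5 to 5 kb, 2.39 in 68 regions of 5 to 10 kb, 2.83 in 77 regions of 10 to 20 kb and 3.12 in 15 regions of 20 kb or more. Of the 264 interior regions shorter than 5 kb, 112 lay within 5 kb of a long one and 92 lay over 20 kb from any. Short regions thus lay partly close to long ones and partly far from any. The share of other interior sequence that lies as close to a long region was not computed.

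**Figure D2:**
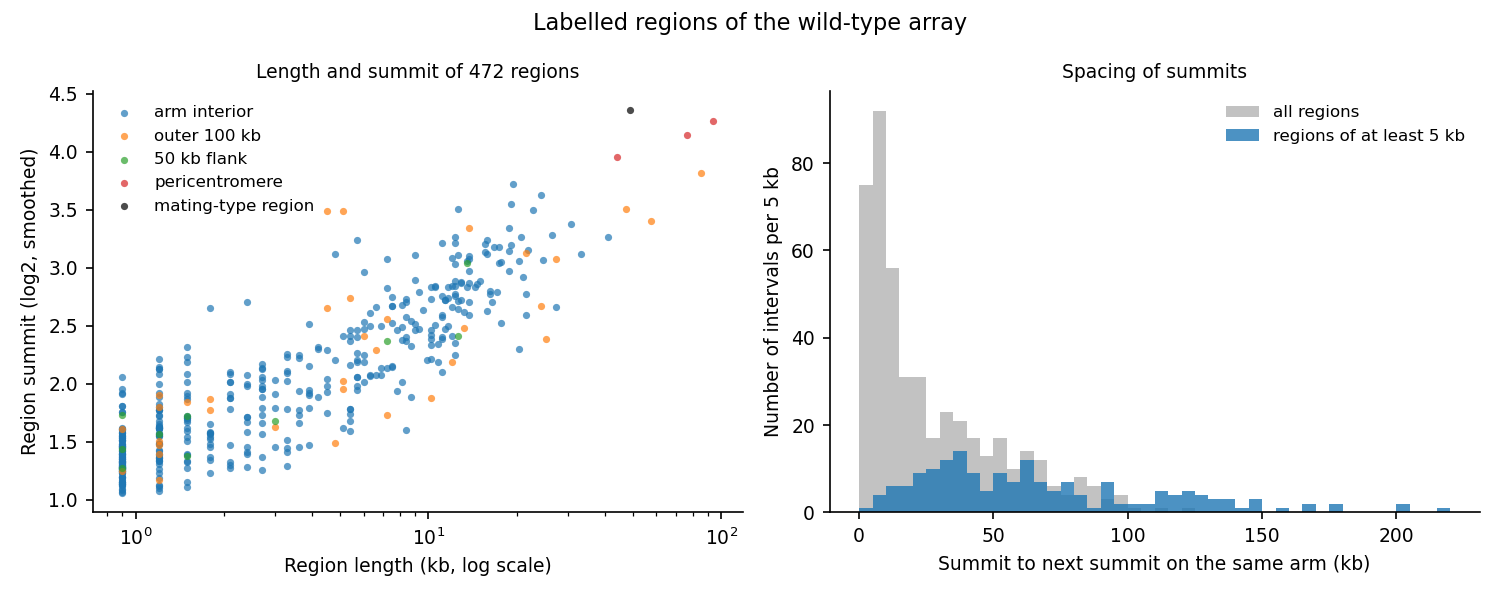
Left, length in kb (log axis) and smoothed summit (log2) of each of the 472 labelled regions, coloured by domain; right, number of intervals per 5 kb of distance between neighbouring summits on the same arm, for regions of at least 5 kb and for all regions. Summits are higher in longer regions, the mating-type region and the 3 pericentromeres have the highest summits, and the median spacing is 58.5 kb for regions of at least 5 kb and 15.9 kb for all regions.

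The long regions stood about as far apart on every arm. Their median spacing, summit to summit, was 58.5 kb over 177 intervals, with quartiles of 33.3 and 93.3 kb. By arm, the median was 59.2 kb on the left and 52.5 kb on the right arm of chromosome I. It was 47.1 kb on the left and 60 kb on the right arm of chromosome II, and 60.8 kb on the left and 58.5 kb on the right arm of chromosome III. The quartiles of every arm overlapped those of every other, so the order of the 6 medians carries little. Regions of at least 5 kb numbered 1.36 per 100 kb on the right arm of chromosome II and 1.68 per 100 kb on the right arm of chromosome I, with the other arms in between. Spacing over all regions was shorter, at a median of 15.9 kb (quartiles 6.6 and 40.5 kb), and it depended on the rule: it became 42 kb with smoothing over 1500 bp either side and 32.4 kb where 5 tiles were asked for. The count of all regions moved likewise, to 258 and 310, while the spacing of regions of at least 5 kb stayed between 49.5 and 75 kb under the 12 alternatives.

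All regions together were densest on chromosome III, at 4.42 (left) and 4.35 (right) per 100 kb, and sparsest on the left arm of chromosome I, at 3.36 per 100 kb. The share of tiles labelled ran in another order. It was 27.9% on the left arm of chromosome II and 26.2% on the right arm of chromosome III. The other arms had 23.3% (I right), 23.0% (III left), 21.6% (I left) and 20.9% (II right). Region height hardly differed between arms, with median summits from 1.78 (III left) to 1.995 (II left), and the quartiles of each arm spanned about 1 log2 unit.

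Around a summit the ratio declined over about 10 to 15 kb on either side. Over the 160 interior regions of at least 5 kb, the mean ratio within 1 kb was 2.25 ± 0.42 to the left and 2.23 ± 0.48 to the right (SD over regions). At 5 to 6 kb it was 1.11 ± 0.62 and 1.13 ± 0.68, and at 10 to 11 kb it was 0.35 ± 0.79 and 0.33 ± 0.84. By 20 to 21 kb it was -0.04 on both sides, with SDs of 1.07 and 1.02, which is the level of the arms. Both sides were alike at each of these distances, within the scatter of the regions. The 15 longest regions declined more slowly, and at 10 to 11 kb they still stood at 1.00 ± 0.74 to the left and 1.62 ± 0.70 to the right. This is in part by construction, since a region is long because its smoothed ratio stays at 1 or more. The profile as a whole had the same reach: the ratio of tiles 9.9 kb apart correlated at 0.40, 0.46 and 0.45 on chromosomes I, II and III, and the correlation first fell below 0 at 29.4, 37.2 and 35.1 kb. Tiles share the array and overlapping sheared fragments, so these correlations are descriptions.

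**Figure D3:**
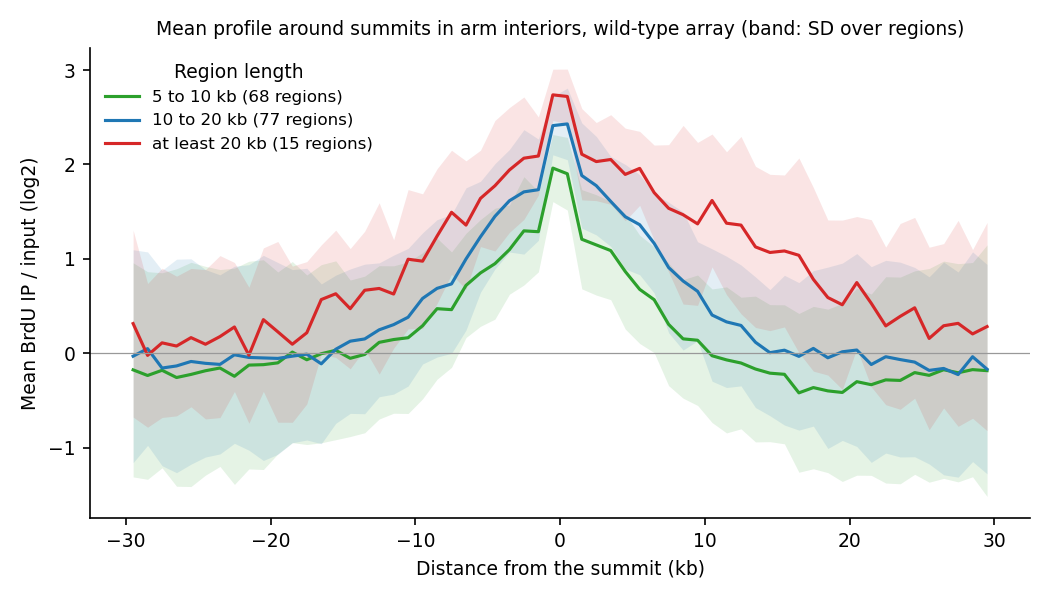
Mean centred log2 ratio in 1 kb steps (vertical axis) against distance from the summit in kb (horizontal axis) for interior regions of 5 to 10 kb (68), 10 to 20 kb (77) and at least 20 kb (15); bands are the SD over regions. All 3 curves decline on both sides, and the regions of at least 20 kb remain above the other classes at 10 kb, in part because the classes were set by length.

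Long unlabelled stretches covered most of the genome. Of 469 gaps between neighbouring labelled regions, 209 were under 5 kb, 89 were 5 to 20 kb and 171 were 20 kb or longer. These 171 gaps summed to 8023 kb, or 64.0% of the tiled length, with a median of 43.5 kb. Gaps of 50 kb or more numbered 59 and gaps of 80 kb or more 11. The signal in them was uneven. In 160 of the 171 the smoothed ratio reached -1 or lower, and in 115 of the 171 at least 1 smoothed tile reached 1, in a run too short to count as a region. A gap is therefore a stretch without a region by this rule, not a stretch without BrdU.

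The longest gap of each arm was between 75.6 and 116.1 kb long and held 32 to 51 coding genes. On the left arm of chromosome I it ran from 2043600 to 2140499 (positions here and below are those of the tile names, with a genome build not given in the sources used here). Its median was -1.08 ± 0.87 (SD over 323 tiles). Its lowest smoothed tile, at -2.89, lay in pit1, the gene of a protein kinase of meiosis, where Cy5 was 261.7 and Cy3 2545. On the right arm of that chromosome the gap ran from 5267400 to 5378999, with a median of -0.89 ± 0.78. It was lowest, at -2.22, at the genes cdc4 and paa1, which encode a myosin light chain of the contractile ring and the scaffold subunit of protein phosphatase 2A.

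On chromosome II the longest gaps ran from 1320300 to 1436399 on the left arm and from 2325000 to 2412299 on the right arm. The left one, the longest of the genome at 116.1 kb, had a median of -0.67 ± 0.84 and was lowest (-2.89) at sip1 and flx1. The right one had a median of -0.60 ± 0.86 and was lowest (-2.93) at sec63, which encodes a part of the protein import channel of the endoplasmic reticulum. At that sec63 tile Cy5 was 99.6 and Cy3 1109. On chromosome III the gaps ran from 405300 to 488399 on the left arm, lowest (-2.88) at SPCC4G3.12C, and from 2112900 to 2188499 on the right arm, lowest (-2.05) at mug163 and fzr3. The length of the longest gap depended on the rule, and it was between 95.4 and 213 kb under the 12 alternatives.

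The ends of chromosomes I and II were labelled over most of their outer 100 kb, and all 4 had medians below 0 at 150 to 200 kb. Over the outer 100 kb of these 4 arms the median was 1.77 ± 0.75 (SD over 1232 tiles), and 89.3% of tiles lay in labelled regions, against 23.8% of all tiles. From 100 to 150 kb the median was 0.70 ± 1.07 (by arm 0.26 on I left, 1.09 on I right, 1.56 on II left and -0.17 on II right). From 150 to 300 kb it was -0.58 ± 1.12 with 10.1% of tiles labelled, and from 300 to 500 kb it was -0.03 ± 1.20 with 21.0% labelled. The arm interiors as a whole had a median of -0.08 ± 1.21 and 20.6% of tiles labelled. The pooled zone 150 to 300 kb from these ends differed from the arm interiors by -0.50, which is less than the scatter of single tiles. Under the alternatives that alter the tiles or their ratios, the only ones that could change this difference, it was -0.49 to -0.36. The arms were not alike in the inner part of this zone. From 200 to 300 kb the medians were -0.77 (I left) and -1.003 (I right), but 0.20 (II left) and -0.05 (II right).

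Each of these 4 ends had its own edge. Going inwards from the last tile, the first gap of 20 kb or more began at 117 kb on the left and at 144.3 kb on the right arm of chromosome I. It began at 152.1 kb on the left and at 98.7 kb on the right arm of chromosome II. Outside these edges lay 6 to 10 regions per end with 78.3 to 135.3 kb of labelled length. In the outermost 20 kb the medians were 2.12 (I left), 2.28 (I right), 2.18 (II left) and 2.005 (II right). At 80 to 100 kb they were 1.66, 1.22, 1.71 and 0.78 in the same order, with 89.4%, 59.7%, 90.2% and 28.9% of tiles labelled. At 150 to 200 kb all 4 were below 0, from -0.95 (II right) to -0.04 (I right). In the outer 100 kb, 35.3% (chromosome I) and 26.0% (chromosome II) of tiles held repeated sequence, for which the array cannot tell copies apart. The tallest summit at an end, 3.82 on the right of chromosome I between SPAC750.06C and SPAC750.07C, lay in such sequence.

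The ends of chromosome III, where the ribosomal DNA arrays lie, were labelled over a shorter length. Their outer 100 kb had a median of 0.34 ± 1.15 with 27.4% of tiles labelled, close to the 23.8% of all tiles. The first gap of 20 kb or more began at 43.5 kb on the left and 33.9 kb on the right. In the outermost 20 kb the medians were 0.77 on the left and 1.45 on the right, and from 20 to 40 kb they were 1.36 and 0.79. Medians below 0 began nearer to these ends. At 80 to 100 kb the medians were -0.88 on the left and -0.51 on the right, and from 100 to 150 kb the pooled median was -0.42 ± 1.04 with 8.75% of tiles labelled. From 150 to 300 kb it was 0.29 ± 1.31 with 30.7% labelled, over arms that differed: the left arm had -0.47 at 150 to 200 kb and 0.96 at 200 to 300 kb, and the right arm 0.98 and -0.35. The tallest regions at these ends, 3.48 on the left and 3.49 on the right, lay between ribosomal RNA genes in repeated sequence.

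**Figure D4:**
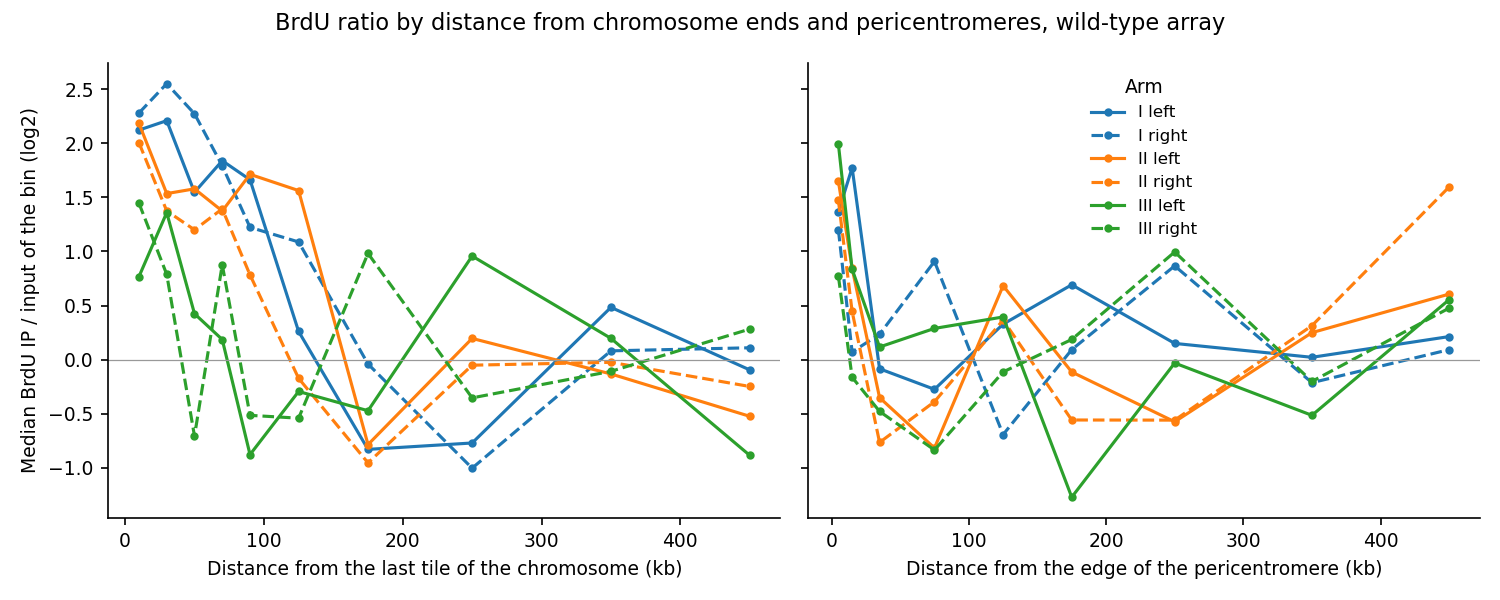
Median centred log2 ratio per distance bin (vertical axes) against distance in kb from the last tile of the chromosome (left) and from the edge of the pericentromere (right), with 1 line per arm of the wild-type array, solid for left and dashed for right arms. The 4 ends of chromosomes I and II start between 2.005 and 2.28 and are below 0 at 150 to 200 kb. Beside the pericentromeres every arm is lower at 20 to 50 kb than in the first 10 kb. At 50 to 100 kb the medians of I left, II left and III right are lower still, and those of the other arms are higher.

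The pericentromeres were the highest domains of the array beside the mating-type region. They were taken as the longest stretch per chromosome without a coding gene, and their medians were 2.92 ± 0.64 (chromosome I, 105 tiles), 2.96 ± 0.64 (II, 109 tiles) and 2.98 ± 0.64 (III, 147 tiles). Every tile in them lay in a labelled region. The 3 medians differed far less than the tiles within each. In 83.1% of these tiles the sequence was repeated, so the values are averages over copies. Their tallest summits were 3.95, 4.14 and 4.26 on chromosomes I, II and III, each next to tRNA genes, which flank the central domains and the heterochromatin of fission yeast centromeres. The mating-type region on chromosome II was taken from mat1 to mat3. It holds the heterochromatic silent mating-type cassettes but is wider than these, and its parts were not separated. It had a median of 2.60 ± 0.77 over 64 tiles, of which 25% held repeated sequence, and the highest summit of the array (4.36).

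High signal extended only a short way out of the pericentromeres. In the first 10 kb the median was 1.44 ± 0.67 on chromosomes I and II and 1.45 ± 0.91 on chromosome III. From 10 to 20 kb it was 0.69 ± 0.98 and 0.36 ± 0.68, and from 20 to 50 kb -0.26 ± 1.00 and -0.28 ± 0.97. The first 10 kb were higher than the stretch from 20 to 50 kb on 6 of 6 arms. The smallest such difference was on the right arm of chromosome I, with 1.20 in the first 10 kb and 0.23 from 20 to 50 kb, and the left arm of that chromosome kept a median of 1.77 at 10 to 20 kb. From 50 to 500 kb the median was 0.16 ± 1.29 on chromosomes I and II and 0.07 ± 1.26 on chromosome III.

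The arm interiors had no slope in common. With each interior split in 3 equal parts, the middle part had the lowest median on 3 of 6 arms, I right (-0.31), II left (-0.27) and I left (-0.24). On the right arm of chromosome III the middle part was instead the highest, at 0.31. On the right arm of chromosome II the medians declined from the part nearest the centromere outwards (0.13, -0.20 and -0.25), with 24.4%, 15.9% and 14.8% of tiles labelled. On the left arm of chromosome III they ran the other way (-0.18, -0.17 and 0.23). All 18 medians lay between -0.31 and 0.31. Tiles of the interiors had an SD of 1.21.

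The tallest peaks of the arms are given by arm, as the 3 tallest interior regions of each. These 18 regions had summits from 2.79 to 3.72 and lengths from 4.8 to 41.1 kb. In 12 of the 18 the summit tile lay between divergently transcribed genes. Such tiles made up 14.5% of interior tiles and held 56.2% of the summits of interior regions of at least 5 kb. In 14 of the 18 the summit tile had a GC content under 30%, against a median of 36.3% over interior tiles. In 15 its Cy3 signal was below the median of all tiles, 1054. The 18 were picked by their ratio, which is itself higher in tiles of low GC content and low Cy3. The Cy5 signals of the 18 summit tiles ran from 395.5 to 16880, on both sides of the probe median of 920.4. After correction of the ratio for GC content the 18 summits lay between 1.89 and 3.56, and 15 were at 2 or more.

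On the left arm of chromosome I the tallest region (3397500 to 3416999, 19.5 kb) peaked at 3.72 between apc5, which encodes a part of the anaphase-promoting complex, and SPAP32A8.02. Its summit tile had a Cy5 signal of 5291 and a Cy3 signal of 396.8. The next (1432800 to 1451699) peaked at 3.34 between tif310 and cam1, the calmodulin gene, with Cy5 at 1599 and Cy3 at 142.9. The other (3178200 to 3190499) peaked at 3.27 inside nsk1, which encodes a spindle-associated protein, with Cy5 at 16880 and Cy3 at 2150. This tile is GC-rich for a summit, at 39.7%, and its summit was 3.37 after GC correction, whereas that of apc5 was 2.63. The longest interior region of the arm, 21.9 kb with a summit of 3.15, lay at SPAC6F6.19 and ypt5, the gene of a Rab5-type GTPase.

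The right arm of chromosome I had the lowest set of leading peaks. Its tallest region (4247100 to 4256099) peaked at 2.89 between pcr1, which encodes a stress-responsive transcription factor, and aca1, with Cy5 at 6230 and Cy3 at 1090. The other regions peaked at 2.83 at sck2, a protein kinase gene (5038200 to 5045399), and at 2.79 between msm1 and pvg2 (4009200 to 4018499). At these summits Cy5 was 589.2 and 395.5 and Cy3 was 104.2 and 61.7, both below the medians of their channels. The ratios of these summit tiles themselves were 2.67 and 2.85. The longest region, 13.8 kb, lay between mnl1 and tsc3 and peaked at 2.71.

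On the left arm of chromosome II the leading peaks were nearly equal in height and unlike in sequence. The region from 309600 to 335999 peaked at 3.28 between arg7, which encodes argininosuccinate lyase, and dal52, in a tile of 23.7% GC. The region from 509700 to 530399 peaked at 3.26 between a 5S ribosomal RNA gene, SPRRNA.29, and SPBC1685.17, in a tile of 40% GC. After GC correction the first stood at 1.89, the lowest of the 18, and the second at 3.56, the highest. The third, from 1101600 to 1107299, peaked at 3.24 between cyp3, a cyclophilin gene, and sks2, which encodes an Hsp70 of the ribosome. The longest region, 33.3 kb between abo2 and nrk1 (summit 3.12), had only 43.2 in Cy3 and 398.0 in Cy5 at its summit tile.

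The right arm of chromosome II had its tallest and longest interior region in the same place. It ran over 24.3 kb from 2783100 to 2807399 and peaked at 3.62 between duo1, a gene of the DASH complex that ties kinetochores to microtubules, and rum1, which encodes the CDK inhibitor of G1. Cy5 was 3114 and Cy3 228.0 at the summit tile, and the mean over its 81 tiles was 2.13 ± 0.67 (SD). The next peaks reached 3.18 between cxr1 and rrp2 (3830400 to 3847199) and 3.12 between rpc25, a subunit gene of RNA polymerase III, and hbs1, a ribosome rescue gene (2592000 to 2596799). The last is narrow for its height, at 4.8 kb, and its summit tile had a Cy3 signal of 45.4, the lowest of the 18.

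On the left arm of chromosome III the longest interior region of the genome, 41.1 kb from 198600 to 239699, also had the tallest summit of the arm. It peaked at 3.26 between mug146 and ght6, a hexose transporter gene, where Cy5 was 16457 and Cy3 1969. The other leading peaks reached 3.21 between asp1, an inositol pyrophosphate kinase gene, and utp21 (567300 to 579599), and 3.18 at sum3, which encodes a DEAD-box RNA helicase (963900 to 981299). The right arm of chromosome III had 3 peaks of about the same height. They reached 3.55 between coq11 and lsm8 (2267700 to 2286899), 3.50 between nup60, a nuclear pore gene, and trs130 (1816200 to 1828799), and 3.49 beside gst1, a glutathione S-transferase gene (1710900 to 1733699). Their summit tiles had Cy3 signals between 71.0 and 90.9 and GC-corrected summits between 2.16 and 2.42. The longest region of that arm, 30.6 kb from 1586700 to 1617299, peaked at 3.37 between SPCC13B11.02C and SPCC13B11.03C in a tile of 35.7% GC, and stood at 2.70 after GC correction.

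Summits lay mostly between genes in the main setting, but not after GC correction or with the Cy5 signal alone. Of the 424 interior summits, 83.7% fell in intergenic tiles, although 62.4% of interior tiles were coding. After GC correction 41.9% of summits were intergenic, near the share of intergenic tiles among interior tiles. With the Cy5 signal alone it was 23.6%, below that share. Tiles between divergent genes made up 14.5% of interior tiles and held 41.0% of summits, and 56.2% of the summits of regions of at least 5 kb. Tiles between tandem genes made up 17.6% and held 33.7%, and tiles between convergent genes made up 5.6% and held 9.0%. Coding tiles made up 62.4% and held 16.3%. The median ratio was 0.45 ± 1.28 between divergent, 0.36 ± 1.18 between tandem and 0.42 ± 1.21 between convergent genes, against -0.35 ± 1.12 in coding tiles. After GC correction these medians were 0.13, 0.00, -0.09 and -0.13. In Cy5 alone, centred on its median, coding tiles were the higher class, at 0.00, against -0.24 in intergenic tiles.

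GC content moved with both channels. In the lowest of 20 equal bins of GC content (13.7 to 27.3%) the median ratio was 1.39, with Cy5 at 626.6 and Cy3 at 321.5. In the highest bin (44.7 to 60.3%) the median ratio was -0.60, with Cy5 at 1388 and Cy3 at 2252. Cy5 thus varied less across the bins than Cy3. The part of GC content in the placement of summits was not tested.

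What held under each correction was the length of the intergene. Here an intergene is the stretch between the neighbouring coding sequences. Tiles of interior intergenes under 0.5 kb had a median ratio of 0.08 ± 1.16, and those of 0.5 to 1 kb one of 0.21 ± 1.14. The median was 0.40 ± 1.20 for 1 to 2 kb, 0.85 ± 1.27 for 2 to 3 kb, 0.76 ± 1.27 for 3 to 5 kb and 0.97 ± 1.28 for 5 kb or more. The share of tiles in labelled regions was 17.6% in the shortest class and 49.4% in the longest, against 20.6% of all interior tiles. GC content hardly differed between these classes, from 31.3 to 34.3%, and was highest in the longest. After GC correction the medians were -0.39 in the shortest and 0.81 in the longest class. Intergenes of 2 kb or more exceeded those under 1 kb by 0.67. With normexp background, loess, GC correction, no repeats or Cy5 alone, the excess was 0.36 to 0.87. The other alternatives act on regions or on centring and cannot change it. The tiles of 1 intergene are neighbours and not independent, and the scatter of single tiles was larger than this difference.

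**Figure D5:**
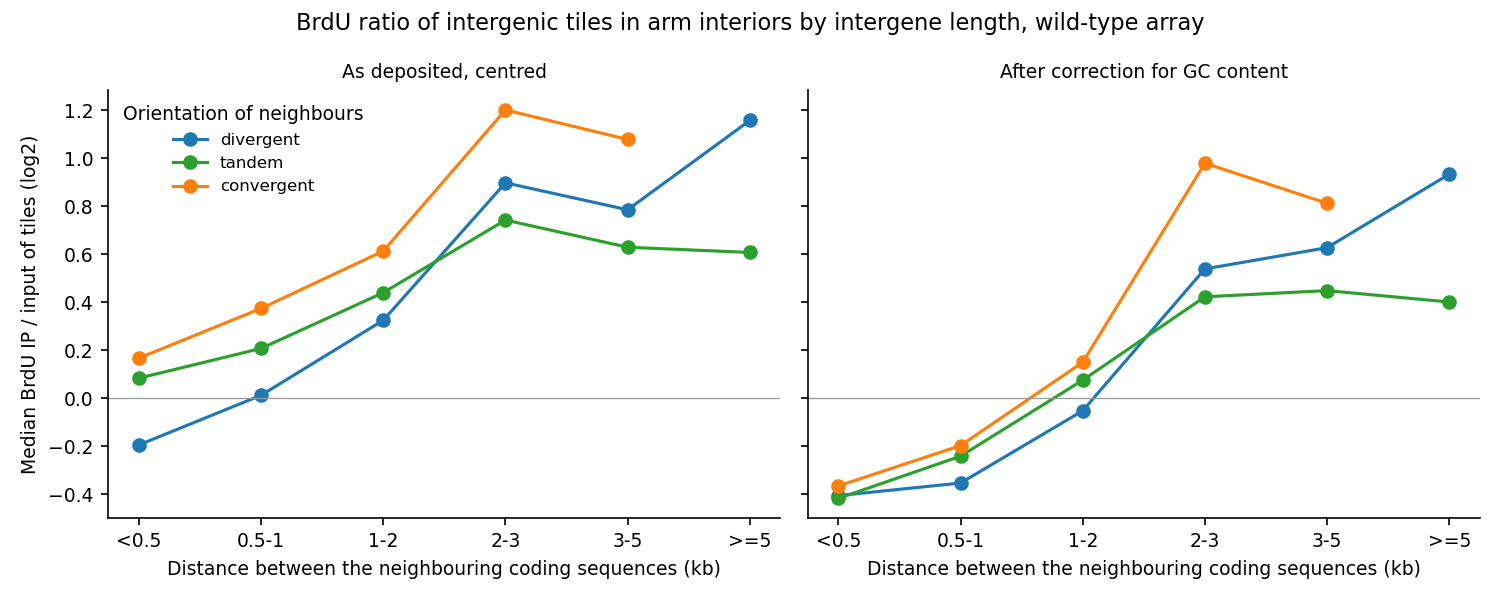
Median log2 ratio of intergenic tiles in the arm interiors (vertical axes) by the distance between the neighbouring coding sequences (horizontal axes), for divergent, tandem and convergent neighbours; left, centred ratio; right, after correction for GC content. In both panels tiles of intergenes of 2 kb or more stand above those under 1 kb for each orientation; convergent intergenes of 5 kb or more are not shown because there are none.

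Differences by orientation were smaller than those by length in the main setting and after GC correction. Among intergenes of 2 kb or more, tiles between convergent genes had a median of 1.11, tiles between divergent genes 0.91 and tiles between tandem genes 0.69. After GC correction they had 0.89, 0.63 and 0.43, in the same order. With loess they had 0.90, 0.81 and 0.55, a range about as wide as the difference by length under loess, 0.36. Convergent intergenes of this length are few, with 17 of 2 to 3 kb and 7 of 3 to 5 kb, against 133 and 60 divergent ones of the same lengths. Over all lengths, divergent minus convergent tiles was 0.03, and between -0.09 and 0.22 under the alternatives that could change it.

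Labelled and unlabelled stretches also differed in their genes. Both were cut from the ratio without GC correction, which is higher in intergenic tiles, so a lower coding share in regions is partly built in. Coding tiles made up 51.1% of interior regions of at least 5 kb, 32.3% of shorter ones and 66.0% of gaps of at least 20 kb. The median intergene around intergenic tiles was 1640 bp in the long regions, 1656 bp in the shorter ones and 1082 bp in those gaps. Coding tiles had the same median GC content in the long regions and those gaps, 38.3%, and still differed in ratio, by construction of the regions. Of 113 interior tRNA genes with a tile, 60 (53.1%) lay in labelled regions, against 876 of 4766 coding genes (18.4%) and 20.6% of interior tiles. Of small nucleolar RNA genes, 21 of 64 (32.8%) lay in labelled regions. That is close to the share of labelled tiles between divergent genes, 32.6%. Tiles between tandem and convergent genes had 26.4% and 26.1%. Families of tRNA genes are near-identical copies, whose signals the array may not tell apart.

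The genes of the replication machinery showed no common position in this landscape. Of 5100 coding genes with tiles, 933 (18.3%) had a mean ratio of 1 or more and 1179 (23.1%) a mean of -1 or lower, and the median was -0.20. Of 25 initiation genes, 4 were at 1 or more and 7 at -1 or lower, with a median of -0.20, the same as that of all genes. The highest were orc5 (1.92 ± 0.14, SD over 5 tiles) and orc2 (1.64 ± 0.17), which encode subunits of the origin recognition complex. The lowest were mcm6 (-2.35 ± 0.61, 9 tiles), a subunit of the replicative helicase, and cdc23 (-2.22 ± 0.57, 6 tiles), the Mcm10 gene of fission yeast. These genes were named as the 2 highest and 2 lowest of the list, so their distance apart is by construction.

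Of 13 G1/S genes driven by Cdc10, 2 were at 1 or more and 4 at -1 or lower, with a median of -0.59. The highest was yox1 (2.57 ± 0.09, 2 tiles), a repressor of this gene set, which lies beside the pericentromere of chromosome II. Next came rad21 (1.27 ± 0.48), the cohesin subunit. The lowest were ssb1 (-1.43 ± 0.34), the large subunit of replication protein A, and mrc1 (-1.29 ± 0.51), the mediator of the replication checkpoint. Of 12 S-phase checkpoint genes, 2 were at 1 or more and 3 at -1 or lower, with a median of -0.05. The highest were chk1 (2.19 ± 0.30), a checkpoint kinase, and swi3 (1.43 ± 0.30), of the fork protection complex. The lowest were hus1 (-2.50 ± 0.29), a subunit of the checkpoint clamp, and rad3 (-1.37 ± 0.75 over 23 tiles), the kinase at the head of the pathway. These counts lie near the shares among all genes given above.

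Ribonucleotide reductase, the target of hydroxyurea, has its large subunit in cdc22 and its small one in suc22. The cdc22 gene stood at -1.27 ± 0.85 (10 tiles) and suc22 at 0.69 ± 0.18 (4 tiles), while spd1, the inhibitor, had 1 tile at -0.04. Near hus5 and ura4, genes with known origins beside them, the highest smoothed ratio within 5 kb of the gene was 2.40 (hus5) and 2.08 (ura4). Each is the maximum of a window of many tiles, and the share of other genes that reach as high was not computed. The median summit of all 472 regions was 1.90. The gene bodies themselves had means of 1.77 ± 0.14 (hus5, 3 tiles) and 0.26 ± 0.02 (ura4, 2 tiles).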

How the data were processed

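BrdU immunoprecipitate (Cy5) and whole-cell extract (Cy3) DNA of 1 culture were hybridised to 1 Agilent tiling array with 42968 spots. Per the file headers, the authors used Agilent Feature Extraction 10.7.3.1; the deposited processed signal of each spot and dye is a linear intensity after background subtraction and linear dye scaling. The deposited ratio is a log10 value, Cy5 over Cy3, and equalled the one recomputed from these signals to within 3.84e-07. Of 41551 non-control probes, 300 named for no chromosome were kept apart and 8 outliers were left out. The precision of each value is limited by the number of arrays, 1.

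Ratios were put on the log2 scale and centred on their median, with no loess or quantile step. Gene names, GC content and repeats came from NCBI's ASM294v3, which numbers positions differently. Each arm was shifted by 1 offset (-1800 to 4350 bp) that matched GC content to the input signal (r from 0.541 to 0.579, with 0.0546 or less at any unrelated offset). The method was tested on simulated data and found 9 of 9 offsets. No reference coordinate or sequence is printed. Repeated tiles had 10% or more of their 30-base words elsewhere in the genome. The GC correction subtracted the median ratio of 20 GC bins. Named genes are those at the 3 tallest and the longest interior region and the longest gap of each arm, and the 2 highest and 2 lowest of each list. The members and lists were chosen with earlier results of these data known. Software was Python 3.11.15, numpy 2.4.6, pandas 2.3.3, scipy 1.17.1, R 4.3.3 and limma 3.58.1. Alternatives were centring, smoothing, threshold, minimum run, merging, normexp background (offset 50), loess, GC correction, no repeats, Cy5 alone and, added after seeing the data, runs broken at untiled stretches.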

Additional observations from a re-analysis of the deposited data

How the results depend on the processing

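Over 20 results and 12 alternatives, 216 of 240 values stayed within a tolerance of 1.5-fold (0.1 for the correlation), 23 moved and 1 reversed. Log2 results were judged by their difference on the ratio scale, so a small one could change sign and count as within. The median of the arm interiors ran from -0.09 to 0.35 and that of the flanks from 0.19 to 0.64. Smoothing, threshold, minimum run, merging and broken runs cannot change tile medians, nor can centring change their differences. Part of the 216 was thus fixed in advance. Results on regions of at least 5 kb, the longest gap and 4 differences between classes of tile were added after seeing the data. Smoothing over 1500 bp either side gave 258 regions with a median length of 8.85 kb and a spacing of 42 kb, 339 local summits (1563 in the main setting) and a longest gap of 207 kb. A threshold of 1.5 left 14.5% of the length labelled, 111 regions of at least 5 kb and a longest gap of 213 kb. A minimum run of 5 tiles gave 310 regions, a median length of 5.7 kb, a spacing of 32.4 kb and a longest gap of 207.9 kb. Merging under 3000 bp gave 306 regions, 7.5 kb and 35.7 kb. Loess within the array gave a spacing of 7.8 kb. GC correction put 41.9% of arm summits in intergenic tiles and gave a longest gap of 210.6 kb. Cy5 alone gave 823 regions, a spacing of 7.5 kb, 2994 local summits, 23.6% of summits in intergenic tiles and a correlation of length and summit of 0.75. With Cy5 alone, intergenic minus coding tiles was -0.24, against 0.75 in the main setting. The cause of these changes was not tested, except that longer smoothing, longer runs and wider merging remove or join short regions by construction. The count of gaps of at least 20 kb (148 to 173) and the spacing of regions of at least 5 kb stayed within the tolerance under all 12 alternatives. So did the medians of the ends and flanks, which only centring and the alternatives that alter the tiles or their ratios could change. No paired analysis was possible because there is 1 array.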

Other observations

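The 300 probes named for no chromosome were used in no comparison. The 110 probes named for the mating-type region had a median log2 ratio of 2.73 ± 0.69 (SD over probes, 1.29 to 4.36), on the scale centred on the chromosome tiles. The 61 probes named for the mitochondrial genome had a median of 0.51 ± 0.46 (-0.16 to 2.24), and the 129 probes named pNSU had a median of 2.09 ± 1.24 (-1.59 to 3.50).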
